A study of Mus musculus with 2 samples.

Results

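The genes described are 6 that encode proteins of the primary granules of neutrophils, or are switched on with them: myeloperoxidase (Mpo), the serine proteases neutrophil elastase (Elane), proteinase 3 (Prtn3), cathepsin G (Ctsg) and the serine protease Prss57, and the membrane protein Ms4a3. They were taken by name, and all 6 were found in the tables of both libraries, which together list 27706 genes. Their levels are described in bone marrow cells gated on markers of stem, granulocytic, monocytic, basophil and neutrophil cells, and no gate used any of the 6 genes.

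Primary granules, also called azurophilic granules, are filled while neutrophil precursors are promyelocytes, and transcription of their contents stops as the cells mature, before secondary granules and S100 proteins are made. Myeloperoxidase is a haem enzyme that turns hydrogen peroxide and chloride into hypochlorous acid. Elastase, proteinase 3 and cathepsin G are made as inactive forms, cut to active enzymes by cathepsin C (Ctsc) and stored bound to the proteoglycan serglycin (Srgn). Ms4a3 is a 4A-family membrane protein known as a marker of granulocyte and monocyte progenitors.

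The cells came from bone marrow of ICR mice 7 to 8 weeks old, from which cells bearing lineage markers had been removed with magnetic beads, and they were captured on the BD Rhapsody platform. One group, here hypoxia, had been in an altitude chamber for 13 days at 52.93 kPa, given as equal to an altitude of 5000 m, with oxygen at 19.5%. The other group, the control, was killed on arrival, so age, time and handling cannot be told apart from hypoxia. Each group has 1 library, the sources used here do not give the number of mice in it, and no test between the groups was possible. The intervals below are exact 95% intervals that cover counting error only, treat each UMI (a counted RNA molecule) as independent, and leave out differences between animals. After filtering, 6280 hypoxia and 3917 control cells remained, with medians of 21344.5 and 32156 UMIs per cell, and 23 cell indices occurred in both libraries.

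A cell entered a gate when the summed UMIs of its 8 marker genes reached a set number per 10000 UMIs. A gate is therefore a range of a marker score, not a cell type. In hypoxia and control the stem gate held 271 and 236 cells, the granulocytic gate 497 and 301, the monocytic gate 876 and 236, the basophil gate 599 and 252, and the neutrophil gate 121 and 71. Within 1.5-fold of the cut lay 62 and 75 stem cells, 87 and 57 granulocytic cells, 55 and 26 monocytic cells, 10 and 9 basophil cells and 1 and 0 neutrophil cells. Granulocytic cells also carried monocytic markers, at medians of 16.6 and 16.5 per 10000 UMIs against a cut of 20 for that gate. Granulocytic markers had medians of 8.81 and 7.48 in basophil cells and 15.2 and 15.7 in neutrophil cells, past the granulocytic cut of 5. A cell past several cuts went to the gate with the largest multiple of its cut. Erythroid cells, 3433 and 2279 in number, should lack the 6 genes and serve as the measure of free RNA.

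Of the 6 genes, 3 lie in 1 stretch of mouse chromosome 10 (GRCm38, GENCODE models). Elane spans chr10:79886247-79888215 on the plus strand with 5 exons. Prtn3 spans chr10:79874476-79883174 on the plus strand with 5 exons, and ends 3073 bases before Elane starts. Prss57 spans chr10:79781474-79790961 on the minus strand with 5 exons, 83515 bases from Prtn3. Mpo has 14 exons at chr11:87793581-87804413 on the plus strand, Ctsg 5 exons at chr14:56099881-56102574 on the minus strand, and Ms4a3 7 exons at chr19:11629496-11640851 on the minus strand. Prtn3 overlaps Plppr3, Prss57 overlaps Fstl3 and Mpo overlaps the antisense gene Gm11505, each on the other strand. The sources used here do not say whether counting used strand, so reads from these overlaps cannot be told apart.

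The stretches before the start sites are shown because Elane and Prtn3, which lie next to each other, both stood low in basophil cells while Ctsg and Ms4a3 did not. RefSeq start sites (GRCm38.p6) were matched for 5 of the 6 genes, and Prss57 had no entry. Capitals mark matches, on either strand, to short core letters of factors known to act in myeloid cells: AGGAAG for PU.1, AACGG for MYB, TTNCNNAA for C/EBP and TGNGGT for RUNX. The sequences run 5′ to 3′ on the strand of the gene. They cover chr10:79886127-79886276 on the plus strand for Elane, chr10:79879494-79879643 on the plus strand for Prtn3, chr14:56102575-56102724 on the minus strand for Ctsg and chr19:11640852-11641001 on the minus strand for Ms4a3.
Elane: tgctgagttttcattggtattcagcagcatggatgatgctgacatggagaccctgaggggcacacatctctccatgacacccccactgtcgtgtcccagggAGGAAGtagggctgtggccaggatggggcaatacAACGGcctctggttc
Prtn3: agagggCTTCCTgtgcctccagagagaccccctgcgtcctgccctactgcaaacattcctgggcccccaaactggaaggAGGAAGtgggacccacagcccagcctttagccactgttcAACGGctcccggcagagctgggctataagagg
Ctsg: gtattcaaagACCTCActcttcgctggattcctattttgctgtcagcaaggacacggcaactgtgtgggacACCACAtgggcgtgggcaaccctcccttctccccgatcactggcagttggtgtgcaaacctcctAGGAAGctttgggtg
Ms4a3: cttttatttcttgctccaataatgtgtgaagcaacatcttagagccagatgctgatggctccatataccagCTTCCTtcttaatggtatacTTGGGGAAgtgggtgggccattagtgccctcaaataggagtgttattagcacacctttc
Elane and Prtn3 each hold the PU.1 letters followed by the MYB letters, from base -84 and base -50 before the start in Elane and from base -94 and base -55 in Prtn3. Prtn3 has a further PU.1 match from base -167. Ctsg has the PU.1 letters from base -15 and the RUNX letters from bases -140 and -79. Further PU.1 matches of Ctsg start at bases -215 and -206, outside the printed stretch. Ms4a3 has PU.1 letters from base -79 and C/EBP letters from base -59. No MYB match fell in the 250 bases before the starts of Ctsg, Ms4a3 or Mpo, and Mpo had 3 matches to the PU.1 letters there. These cores are common: in 250-base windows of 32851 mouse promoters, PU.1 letters occurred in 29.5%, MYB letters in 14.5%, C/EBP letters in 36.8% and RUNX letters in 40.1%. The windows of Elane and Prtn3 include 30 bases that GENCODE annotates as exonic, and a letter match is not evidence of binding. The Mpo window runs past the GENCODE start of Mpo at chr11:87793581. Of its 150 bases farthest from the RefSeq start, 103 are exonic, so no stretch is printed for Mpo. The whole Prtn3 window lies inside the GENCODE span of that gene, which starts at chr10:79874476. The Prtn3 matches therefore hold for the RefSeq start only. The MYB match of Elane also lies past the GENCODE start of that gene, chr10:79886247, among its exonic bases. It too lies before the RefSeq start only.

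Of the 5 gates described, granulocytic cells had the highest level of all 6 genes in both libraries. The summed UMIs of the 6 genes made up 2.02% of all UMIs of granulocytic cells in hypoxia and 2.18% in control. Monocytic cells followed with 0.842% and 0.967%, then basophil cells with 0.406% and 0.429%, and stem cells (0.181% and 0.135%) and neutrophil cells (0.170% and 0.178%) changed places between the libraries. In erythroid cells the share was 0.00462% and 0.00264%. Levels below are CPM, the UMIs of a gene scaled to the total UMIs of its gate, hypoxia first. They compare 1 gene across gates and do not rank genes against each other, since they are not scaled for gene length.

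Mpo stood at 7856 and 8642 CPM in granulocytic cells, 3876 and 4751 in monocytic cells and 1728 and 2382 in basophil cells. It was at 1071 and 919.6 CPM in stem cells, 424 and 567 in neutrophil cells, and 15.6 and 9.34 in erythroid cells. For Mpo no ranges over the 2 libraries overlapped between neighbours in this order.

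Prtn3 stood at 5296 and 5790.1 CPM in granulocytic cells, 2711 and 2843 in monocytic cells and 555 and 594 in neutrophil cells. It was at 389 and 269.7 CPM in stem cells, 116 and 129 in basophil cells, and 13.5 and 7.68 in erythroid cells. In Prtn3 the order put stem cells above basophil cells, the reverse of Mpo.

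Elane stood at 3621 and 3640.5 CPM in granulocytic cells, 837 and 844 in monocytic cells and 379 and 319 in neutrophil cells. It was at 64.7 and 69.0 CPM in basophil cells, 31.6 and 9.43 in stem cells, and 10.2 and 5.44 in erythroid cells. Stem cells held 0.325 and 0.106 Elane UMIs per cell, against 0.277 and 0.221 in erythroid cells. By this measure Elane in stem cells is read as background.

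Ctsg had another order. It stood at 2191 and 2447 CPM in granulocytic cells, and of the 5 gates described basophil cells came next with 1759 and 1332. Monocytic cells were at 744 and 925 CPM, stem cells at 264 and 125, neutrophil cells at 80.5 and 108 and erythroid cells at 4.21 and 2.55.

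Ms4a3 stood at 980.0 and 1035 CPM in granulocytic cells, and as for Ctsg basophil cells came next among the 5 gates described, with 365 and 353. Monocytic cells were at 218 and 242 CPM, neutrophil cells at 189 and 161, stem cells at 32.3 and 12.4 and erythroid cells at 1.65 and 0.876. Ranges over the 2 libraries did not overlap between neighbours for Prtn3, Elane, Ctsg or Ms4a3 either. The neutrophil places in these orders rest partly on 1 hypoxia and 2 control cells outside the main neutrophil cluster, and within it Prtn3 was at 485 and 131 CPM, a range that spans that of stem cells.

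Prss57 stood at 246 and 288 CPM in granulocytic cells, 71.8 and 32.2 in neutrophil cells and 34.7 and 62.3 in monocytic cells. The ranges of the neutrophil and monocytic gates overlapped. It was at 30.3 and 27.1 CPM in basophil cells, 18.7 and 8.68 in stem cells, and 1.07 and 0.497 in erythroid cells.

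**Figure D1:**
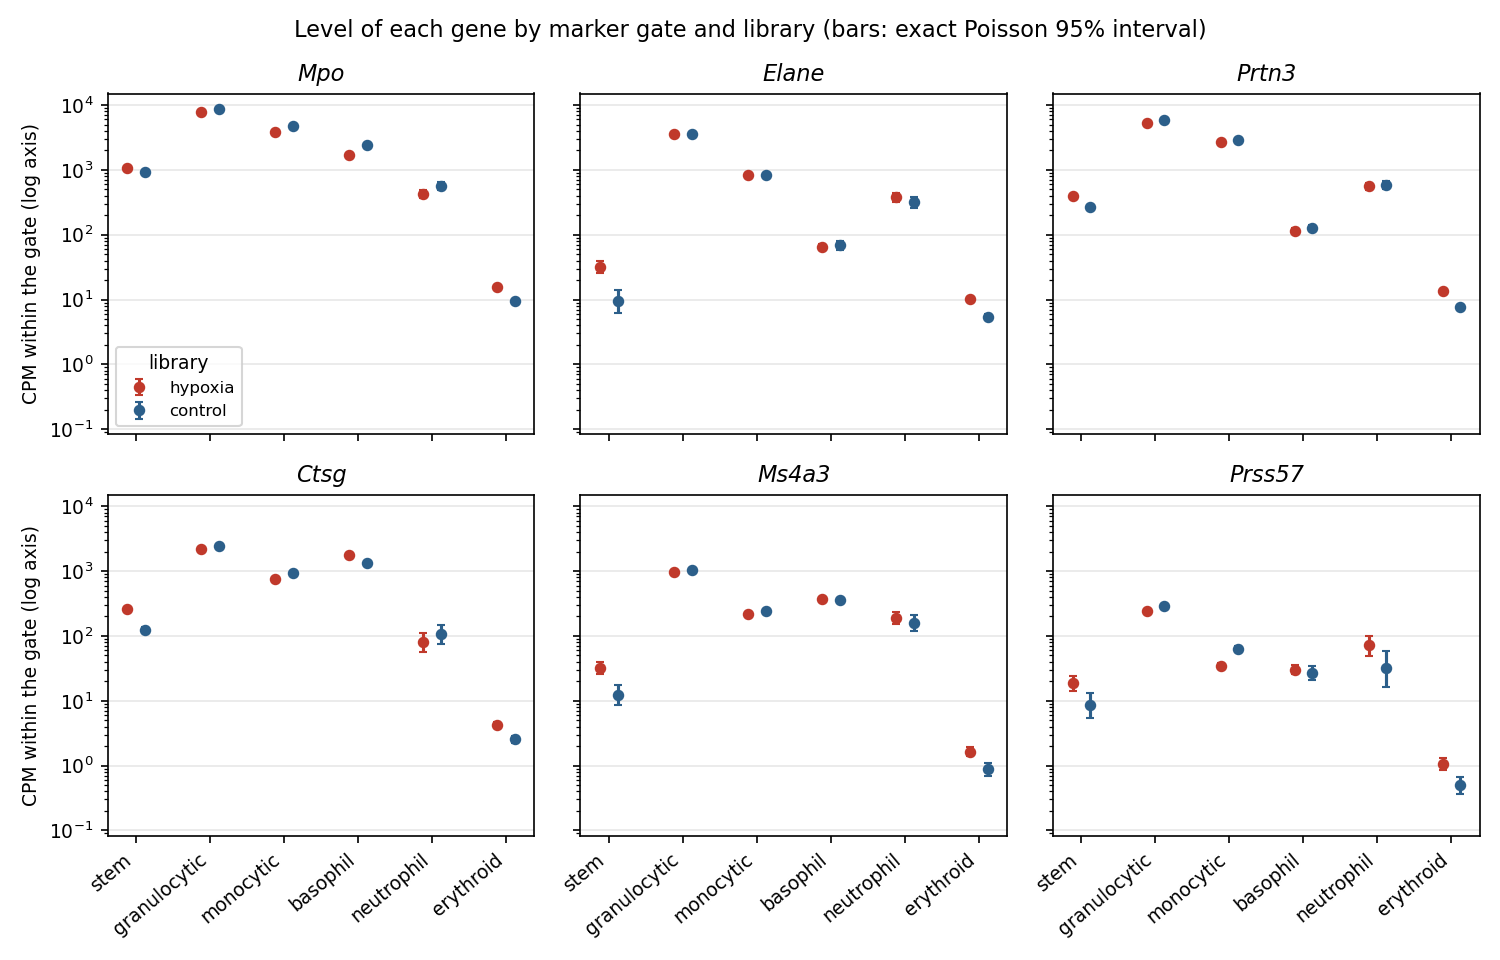
Level of each gene (CPM of the gate, log axis) in 6 marker gates, with 1 point per library and bars for the exact Poisson 95% interval. In all 6 panels the granulocytic gate is highest, and in the panels of Ctsg and Ms4a3 the basophil gate comes next of the gates plotted.

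The basophil gate set Elane and Prtn3 apart from the other genes. Granulocytic cells exceeded basophil cells 55.9-fold in hypoxia and 52.7-fold in control for Elane, and 45.7-fold and 45.0-fold for Prtn3. For Ctsg the same ratio was 1.25 (interval 1.22 to 1.28) in hypoxia and 1.84 (1.77 to 1.91) in control. Ms4a3 gave 2.68 and 2.94, Mpo 4.55 and 3.63, and Prss57 8.13 and 10.6. Elane and Prtn3 thus stood apart from the other 4 genes in both libraries. Against monocytic cells the ratios were closer together, from 1.95 for Prtn3 to 7.08 for Prss57 in hypoxia and from 1.82 for Mpo to 4.62 for Prss57 in control. Against stem cells they ran from 7.33 for Mpo to 115 for Elane in hypoxia and from 9.40 for Mpo to 386 for Elane in control, with Elane in stem cells at background.

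**Figure D2:**
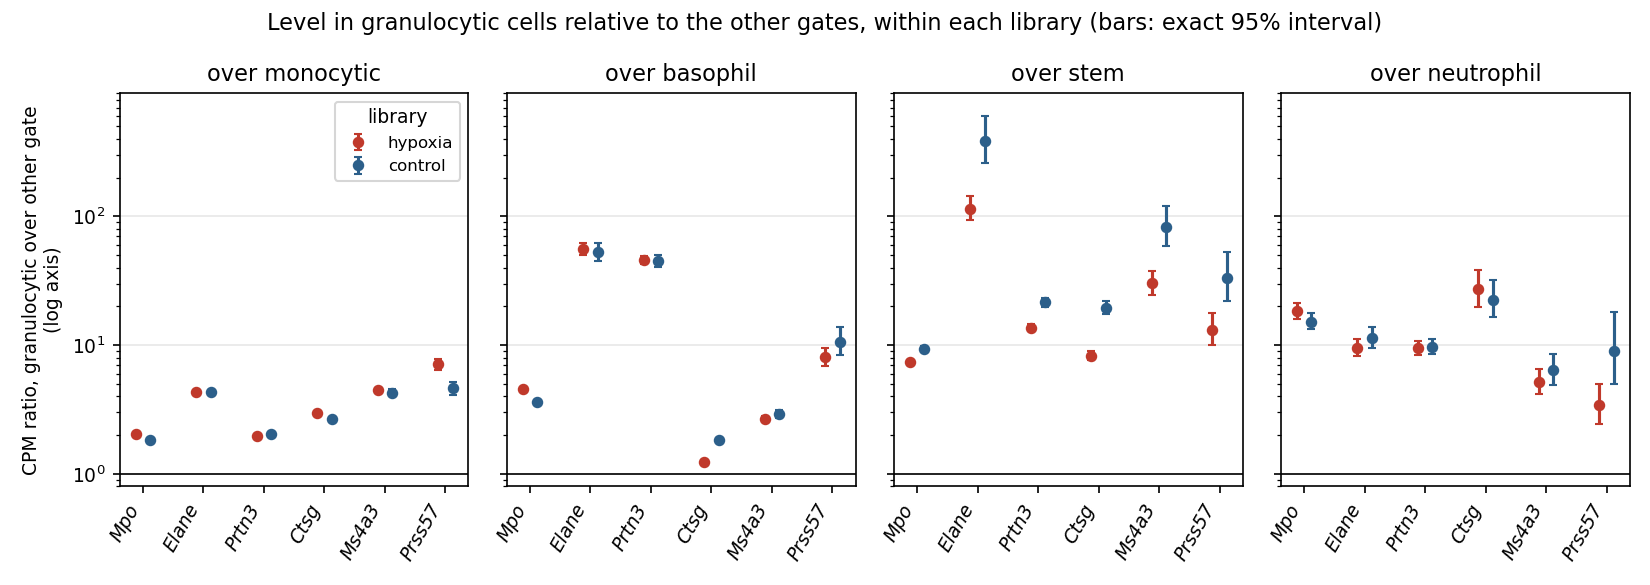
Ratio of the level in granulocytic cells to that in 4 other gates, within each library, on a log axis, with exact 95% intervals. Against basophil cells Elane and Prtn3 sit between 45.0 and 55.9 while Ctsg, Ms4a3 and Mpo lie at 4.55 or lower, and both libraries show the split.

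A single cell gave a large share of the few basophil-gate UMIs of Elane and Prtn3. One cell held 38.6% of the Elane UMIs of the gate in hypoxia, and 1 held 63.7% in control. For Prtn3 the highest cell held 24.3% and 44.4%. For Ctsg it held only 1.23% and 2.38%. Without the highest cell, Elane was at 0.365 and 0.243 UMIs per basophil cell, close to the 0.277 and 0.221 of erythroid cells, while Ctsg was at 15.9 and 12.6 against 0.114 and 0.104. Prtn3 without its highest cell was at 0.804 and 0.693 UMIs per basophil cell, against 0.364 and 0.312 in erythroid cells. The erythroid values keep every cell, and the highest control erythroid cell held 13.9% of the Elane and 19.7% of the Prtn3 UMIs there.

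Basophil-gate cells fell mainly into a pair of clusters, made without the 6 genes. Cluster 7, led by Prss34, Mcpt8 and Cpa3, held 66.8% and 63.9% of the gate, and cluster 13, in which the chemokines Ccl4 and Ccl3 led, held 32.7% and 35.3%. Mpo was at 1964 and 2702 CPM in cluster 7 and at 92.2 and 56.1 in cluster 13. Ctsg was at 2009 and 1531 CPM in cluster 7 and at 244 and 210.5 in cluster 13. Ms4a3 was at 419.5 and 396 CPM in cluster 7 and at 17.7 and 50.5 in cluster 13. All 3 genes therefore stood lower in cluster 13, in both libraries.

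Shares of cells with a UMI were compared after thinning every cell to 2000 UMIs, since depth differed between gates and libraries (medians of 21196 and 27195 UMIs in granulocytic cells, 26955 and 40945 in erythroid cells). In granulocytic cells Mpo was found in 90.7% and 93.0% of cells, Prtn3 in 86.3% and 88.6%, Ctsg in 84.9% and 87.0% and Elane in 74.4% and 76.3%. Ms4a3 was found in 64.5% and 65.6% and Prss57 in 30.8% and 33.8%. In thinned erythroid cells no gene passed 2.59% in hypoxia or 1.27% in control. Unthinned, Mpo had a UMI in 29.2% and 19.2% of erythroid cells, so unthinned shares are not read as expression.

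Granulocytic cells often held many of the 6 transcripts together. All 6 were found in 25.8% of thinned granulocytic cells in hypoxia and 27.1% in control, and none of them in 7.86% and 6.02%. The median granulocytic cell showed 5 of the 6. In monocytic cells the median was 3, and all 6 occurred together in 1.14% and 3.39%. No stem or basophil cell showed all 6. In neutrophil cells 73.3% and 77.0% of thinned cells showed none of the 6.

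Across granulocytic cells the levels of the 6 genes also ran in parallel. Over 496 hypoxia and 299 control cells thinned to the same depth, Pearson's r was 0.83 in both libraries between Mpo and Prtn3, 0.79 and 0.81 between Elane and Prtn3, and 0.74 and 0.78 between Prtn3 and Ctsg. With Prss57, the sparsest of the 6, r lay between 0.28 and 0.38 in hypoxia and between 0.24 and 0.42 in control. These values describe cells of 1 library each, which share that library and its preparation.

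Within the granulocytic gate the 6 genes differed between clusters. Cluster 9, where Ly6c2, Clec12a and Gstm1 led beside the 6 genes, held 62.8% and 70.1% of the gate. Cluster 6, led by the progenitor genes Cd34, Adgrl4 and Flt3, held 13.7% and 16.6%. Elane was at 4575 and 4351 CPM in cluster 9 and at 110.0 and 219 in cluster 6, ratios of 41.6 and 19.8. Ms4a3 was at 1247 and 1224 CPM against 75.9 and 113, ratios of 16.4 and 10.8. Mpo was at 8972 and 9588 CPM against 2929.7 and 4127, ratios of 3.06 and 2.32. Prtn3 differed 5.57-fold and 4.43-fold and Ctsg 3.64-fold and 3.26-fold. In cells of the gate with progenitor genes, Mpo, Ctsg and Prtn3 were thus nearer to their level in cluster 9 than Elane and Ms4a3 were, in both libraries.

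Between hypoxia and control, granulocytic cells showed no gene of the 6 past 1.5-fold on the scale of log2(CPM + 10). That threshold was passed upward by 1.36% and downward by 1.1% of 10357 genes in this gate. The ratio of CPM in hypoxia to control was 0.909 (interval 0.900 to 0.918) for Mpo, 0.915 (0.903 to 0.926) for Prtn3 and 0.895 (0.879 to 0.913) for Ctsg. Prss57 gave 0.854 (0.807 to 0.904). Ms4a3 gave 0.947 and Elane 0.995, and both turned slightly above 1 when cells were assigned by cluster. The median log2 ratio of the 6 genes was -0.13, against 0.018 over all genes tested. In cluster 9 alone the ratios lay between 0.920 for Prss57 and 1.05 for Elane. In cluster 6 Elane was at 0.502 (0.396 to 0.633), Ms4a3 at 0.671, Mpo at 0.710, Prtn3 at 0.745 and Ctsg at 0.842, from 68 and 50 cells. Prss57 there was at 1.37 (0.945 to 2.01).

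**Figure D3:**
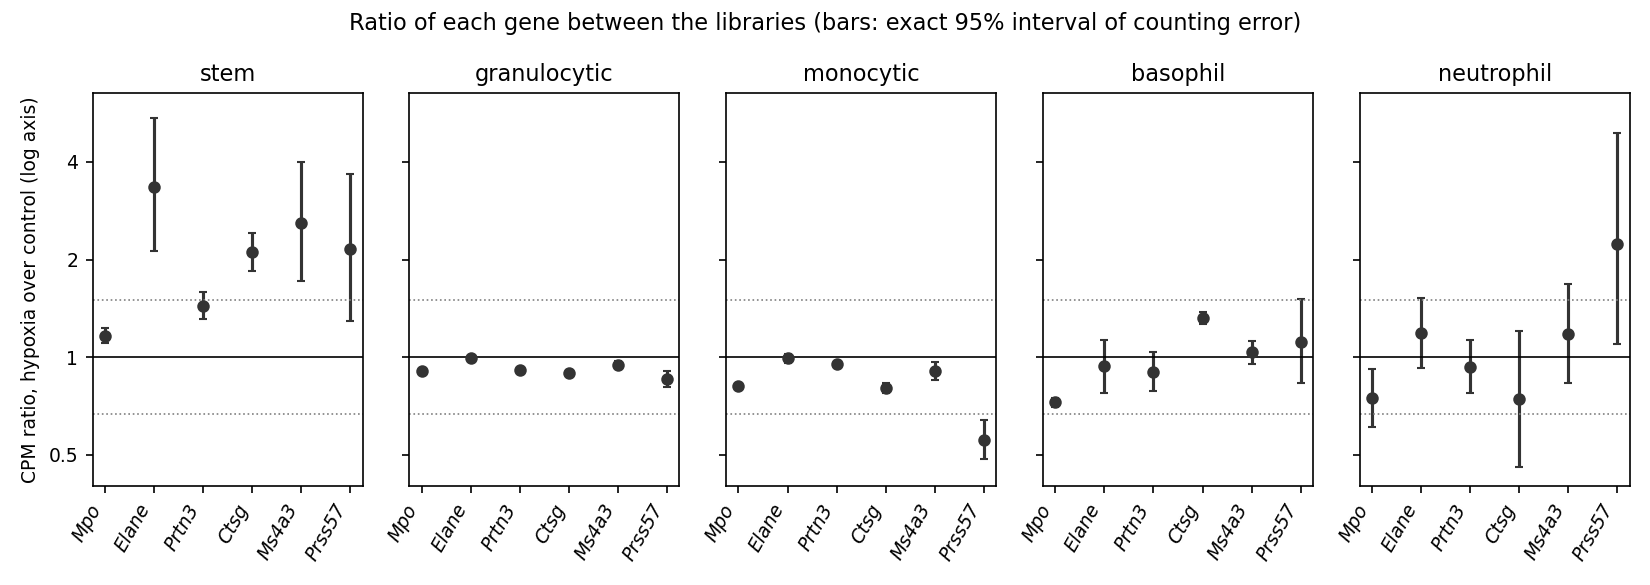
Ratio of CPM in hypoxia to control for each gene in 5 gates (log axis), with exact 95% intervals of counting error and dotted lines at 1.5-fold either way. Granulocytic ratios lie close to 1, stem ratios all lie above it (4 of the 6 turn lower with cells assigned by cluster), and Prss57 is the lowest point of the monocytic panel.

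In monocytic cells 1 of the 6 genes, Prss57, was lower past the threshold and none was higher. Of 10544 genes in this gate, 2.68% passed it upward and 1.75% downward. Prss57 was at 34.7 CPM in hypoxia and 62.3 in control, from 553 and 345 UMIs, a ratio of 0.557 (0.486 to 0.639). Mpo gave a ratio of 0.816 (0.804 to 0.828) and Ctsg 0.805 (0.779 to 0.832). Prtn3 stood at 0.954, Ms4a3 at 0.904 and Elane at 0.992. The median log2 ratio was -0.22, against 0.029 over all genes tested.

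The mix of clusters in the monocytic gate differed between the libraries, and the 6 genes differed between those clusters. Cluster 3, led among other genes by Ly6c2, F13a1 and Irf8, held 55.3% of monocytic cells in hypoxia and 71.2% in control. Cluster 11, with Ccr2 and Lyz2 among its leading genes, held 42.6% and 16.9%. The other 19 hypoxia and 28 control cells lay in neither cluster. They count in the whole-gate ratios but not in the cluster ratios, and their part in the difference was not tested. Mpo was at 5248 and 4959 CPM in cluster 3 and at 876 and 1277 in cluster 11. Elane was at 1129 and 760.4 CPM in cluster 3 and at 185 and 149.9 in cluster 11. All 6 genes stood higher in cluster 3 than in cluster 11 in both libraries, from 2.02-fold for Prtn3 in control to 9.13-fold for Prss57 in hypoxia.

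Within cluster 3 the direction of several ratios turned. Elane gave 1.48 (1.43 to 1.54), Ms4a3 1.40 (1.296 to 1.504) and Prtn3 1.22 (1.19 to 1.24). Mpo gave 1.06 and Ctsg 1.06, and Prss57 gave 0.864 (0.738 to 1.01). Within cluster 11 Mpo gave 0.686 (0.635 to 0.741), Prtn3 0.814 and Ctsg 0.846, with 40 control cells. Elane gave 1.24 (0.996 to 1.55) there and Ms4a3 1.56 (0.950 to 2.72), and Prss57 had 25 and 5 UMIs. With both clusters given the same weight, the median log2 ratio of the 6 genes was 0.062 and Prss57 stood at -0.20, inside the threshold, as it did with cells thinned (-0.38). The lower Mpo and Ctsg of the whole gate thus did not occur in its larger cluster, and Mpo in cluster 11 was lower in hypoxia as in the whole gate.

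**Figure D4:**
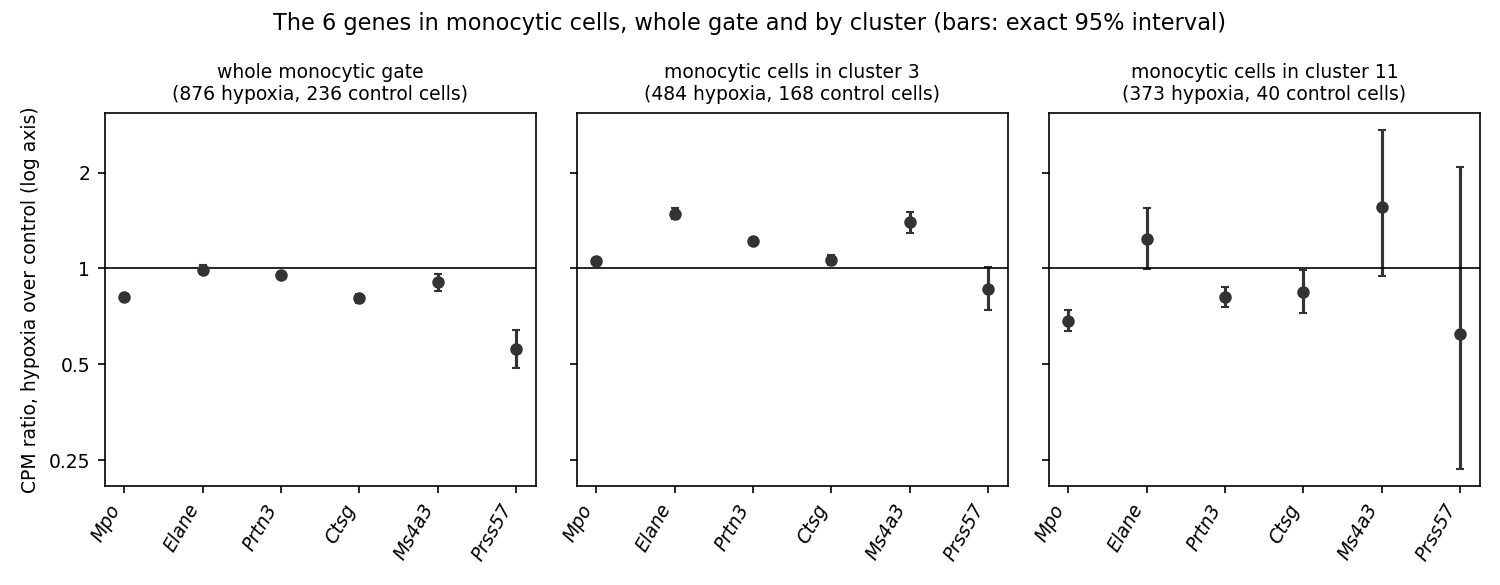
Ratio of CPM in hypoxia to control for each gene (log axis, exact 95% intervals) over the whole monocytic gate and within its clusters 3 and 11, with cell numbers in the titles. Prtn3 and Ms4a3 lie below 1 over the whole gate and above 1 in cluster 3, and Elane goes from 0.992 to 1.48.

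In stem cells 4 of the 6 genes (Elane, Ctsg, Ms4a3 and Prss57) were higher in hypoxia past 1.5-fold and none was lower, although 4 of the 6 ratios turned below 1 when cells were assigned by cluster. The background in this gate was 2.72% of 9299 genes higher and 2.43% lower. Ctsg was at 264 and 125 CPM, from 736 and 332 UMIs, a ratio of 2.11 (1.85 to 2.41). Ms4a3, from 90 and 33 UMIs, gave 2.59 (1.72 to 3.99) and Prss57, from 52 and 23 UMIs, 2.15 (1.29 to 3.68). Elane gave 3.35 (2.13 to 5.45) from 88 and 25 UMIs at the level of background. Elane, Ms4a3 and Prss57 reached the minimum of 50 UMIs only through hypoxia. The count of 4 of the 6 is therefore no support for a direction of the list. Prtn3 gave 1.44 (1.31 to 1.59) and Mpo 1.17 (1.10 to 1.23). The median log2 ratio was 0.77, against 0.010 over all genes tested. In erythroid cells, where the genes should be silent, the level was also higher in hypoxia, with CPM ratios of 1.67 for Mpo, 1.88 for Elane and 1.75 for Prtn3. Per erythroid cell the UMIs were closer, at 0.423 and 0.379 for Mpo, 0.277 and 0.221 for Elane and 0.364 and 0.312 for Prtn3. The highest control erythroid cell held 29.7% of the Mpo, 13.9% of the Elane and 19.7% of the Prtn3 UMIs there. In hypoxia the highest erythroid cell held 4.68%, 1.05% and 1.52%, so the closeness rests in part on 1 control cell. The part of free RNA in the stem ratios was not tested.

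Ctsg in stem cells was far above the erythroid level, with 2.72 and 1.41 UMIs per cell against 0.114 and 0.104. After thinning, it was found in 25.9% (20.8% to 31.6%) of hypoxia stem cells and 12.2% (8.24% to 17.1%) of control stem cells, and in 0.962% and 0.263% of erythroid cells. Unthinned shares in stem cells were 43.2% and 26.3%, at median depths of 9468 and 10081.5 UMIs. Prtn3 was found in 108 of 270 thinned hypoxia stem cells (34.1% to 46.1%) and in 63 of 230 control stem cells (21.7% to 33.6%). Mpo was found in 46.3% and 37.8%, with overlapping intervals. Elane was found in 4.44% (2.32% to 7.63%) of thinned hypoxia stem cells and 0.435% of control stem cells, against 2.04% and 0.834% of erythroid cells.

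The stem gate also mixed clusters in different shares. Cluster 6 held 65.7% of its cells in hypoxia and 52.5% in control, and cluster 12, led by Ctla2a, Serpina3g, Pf4 and Gata2, held 19.2% and 30.5%. None of the stem markers was among the leading genes of either cluster, and markers of other gates were (Dntt in cluster 6, Pf4, Gata2 and Itga2b in cluster 12). Mpo was at 1414 and 1387 CPM in cluster 6 and 122 and 42.4 in cluster 12. Ctsg was at 348 and 193 CPM in the stem cells of cluster 6, a ratio of 1.80 (1.58 to 2.07), and Prtn3 gave 1.27 there. When every cell of cluster 6 was counted as the stem class instead (349 and 294 cells), the median log2 ratio turned to -0.22, with Ctsg at 0.089, Prtn3 at -0.31 and Mpo at -0.36. That class kept 178 and 124 cells of the stem gate, left out the other 93 and 112, and added 68 and 50 granulocytic-gated cells and 103 and 120 of other gates or none. With the cuts doubled or halved the median stayed at 0.65 and 0.84. With cells thinned, Ms4a3 (log2 ratio 0.48) and Prss57 (0.22) no longer passed the threshold in the stem gate, and Prtn3 (0.99) did. Prss57 was also inside it with the cuts doubled (0.51), and with clusters weighted alike so were Prss57 (0.45) and Elane (0.32). The granulocytic marker sum was itself higher in hypoxia stem cells, at a median of 2.999 against 1.55 per 10000 UMIs, and its part in the ratios was not tested.

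In basophil cells no gene of the 6 passed the threshold, which 3.3% of 9058 genes passed upward and 3.22% downward. Ctsg was at 1759 CPM in hypoxia and 1332 in control, a ratio of 1.32 (1.27 to 1.37), whereas Mpo was at 1728 and 2382, a ratio of 0.726 (0.702 to 0.750). The intervals of these ratios did not overlap each other or 1. In cluster 7 alone Ctsg gave 1.31 (1.26 to 1.37) and Mpo 0.727 (0.703 to 0.752), as in the whole gate. Ms4a3 gave 1.04 (0.956 to 1.12). Leaving out the highest cell of each library turned the log2 ratios of Elane and Prtn3 from -0.081 to 0.50 and from -0.14 to 0.25. The median over the 6 genes was -0.015, against 0.014 over all genes tested.

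In neutrophil cells 5 of the 6 genes reached 50 UMIs over both libraries and none of these passed the threshold, against a background of 11.7% of 2439 genes higher and 4.88% lower. TMM scaling moved the median log2 ratio of all genes in this gate from 0.083 to -0.048, and the share of higher genes among those past the threshold from 70.6% to 44.6%. Prss57 had 33 and 11 UMIs and was not counted, at a ratio of 2.23 (1.10 to 4.90). Most Mpo UMIs of the gate came from few cells. A single hypoxia cell outside cluster 15, the neutrophil cluster led by S100a8, S100a9 and Ngp, held 67.2% of them, and 2 such control cells held 80.4%. These control cells also held 79.8% of the Prtn3 and 76.1% of the Elane UMIs of the control. Inside cluster 15 Mpo was at 145 and 121 CPM, a ratio of 1.20 (0.791 to 1.84). Without the highest cell, the gate held 0.533 and 1.06 Mpo UMIs and 0.0833 and 0.214 Ctsg UMIs per cell, against 0.423 and 0.379 and 0.114 and 0.104 in the deeper erythroid cells, so in hypoxia both were near background. Prtn3 inside cluster 15 was at 485 and 131 CPM, a ratio of 3.72 (2.65 to 5.33) from 214 and 41 UMIs, and Elane at 236 and 82.8, a ratio of 2.85 (1.84 to 4.56). Of the hypoxia Prtn3 UMIs, 27.5% came from 1 cell, and the 13 highest of 121 cells held all of them. The ratios of the neutrophil gate therefore rest on a handful of cells in each library.

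The genes that process and pack the 6 proteins were followed as lists. Over all genes tested, 1.36% passed 1.5-fold upward and 1.1% downward in granulocytic cells, and 2.68% and 1.75% in monocytic cells. The shares were 2.72% and 2.43% in stem cells and 3.3% and 3.22% in basophil cells. Of the 12 genes for folding and haem supply of myeloperoxidase, none passed 1.5-fold in granulocytic or monocytic cells, and the median log2 ratio in granulocytic cells was -0.066. The chaperone calreticulin (Calr) was at 3628 and 3551 CPM in granulocytic cells, and Alas1, the first enzyme of haem synthesis, at 507 and 532. In basophil cells 2 of the 12 were lower and none higher: the chaperone Hspa5 at 1892 and 3799 CPM and the disulfide isomerase Pdia4 at 187 and 322. Both were also lower, inside the threshold, in granulocytic, monocytic and stem cells. The ratios there were 0.692, 0.729 and 0.730 for Hspa5 and 0.671, 0.685 and 0.703 for Pdia4. Of 6 measured genes for protease activation, inhibition and packing, 1 was lower in granulocytic cells (the serpin Serpina3g at 15.3 and 33.0 CPM). Serglycin was at 4064 and 4974 CPM there and cathepsin C at 53.4 and 45.2, both inside the threshold. In stem cells 2 of 6 were higher, the protease inhibitors Serpinb1a (194 and 116 CPM, a granulocytic gate marker) and Slpi (33.0 and 13.6), and Serpina3g was lower (218.5 and 382). Slpi had 92 and 36 UMIs there and reached the minimum of 50 UMIs only through hypoxia.

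Among 14 regulators of these genes, 1 was higher and 1 lower in granulocytic cells: Irf8, a factor of the monocytic fate and a monocytic gate marker, at 143 and 74.1 CPM, and Cebpd at 71.2 and 120.5. Cebpa, which drives the granulocytic programme, was at 259 and 326 CPM there, Gfi1 at 138 and 174 and Myb at 1326 and 1238, all inside the threshold. In monocytic cells 2 of 13 were higher (Csf2ra and Klf4) and 2 lower, Gfi1 at 13.1 and 30.3 CPM and the receptor gene Csf3r at 30.9 and 55.1. Klf4 is a monocytic gate marker and Gfi1 a granulocytic gate marker. In stem cells Irf8 was at 64.6 and 30.6 CPM, beside the higher Ctsg, and Klf4 at 6.10 and 35.1. The subunits of the NADPH oxidase, which supplies the peroxide that myeloperoxidase uses, gave none of 6 past the threshold in granulocytic cells and 1 of 6 in monocytic cells, Cybb at 171 and 107 CPM. Among 9 measured other granule and lysosomal proteins, 1 was higher past the threshold in monocytic cells and none lower, lysozyme Lyz2 at 724.5 and 453 CPM. Lyz2 was among the leading genes of cluster 11, which held 42.6% of monocytic cells in hypoxia and 16.9% in control. The part of this cluster mix in the monocytic values of the regulators, Cybb and Lyz2 was not tested. Over all genes tested, 1.36% were higher and 1.1% lower past the threshold in granulocytic cells, and 2.68% and 1.75% in monocytic cells.

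Genes of secondary granules and S100 proteins, 8 of 10 of them neutrophil gate markers, were followed too. Over all genes tested, 1.1% were lower past the threshold in granulocytic cells and 3.3% higher in basophil cells. In granulocytic cells none of 7 was higher and 2 were lower, S100a9 at 49.3 and 240.7 CPM and S100a8 at 75.8 and 204. In basophil cells all 4 measured were higher, but S100a8, S100a9 and Ngp had 6, 4 and 1 UMIs in control and reached the minimum of 50 UMIs only through hypoxia, so that count is no support for a direction of the list: S100a8 at 68.4 and 2.47 CPM, S100a9 at 34.8 and 1.64, Ngp at 19.0 and 0.411 and Lcn2 at 53.6 and 21.8. Their part in the Ctsg and Mpo ratios of basophil cells was not tested.

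The nearest neighbours of the 6 genes on the chromosome varied in level. Cfd, which follows Elane, had 0.676 and 0.246 CPM in granulocytic cells, and Lpo, a peroxidase gene beside Mpo, had 0 and 1 UMIs there. Plppr3, which overlaps Prtn3, was at 63.6 and 67.1 CPM in granulocytic cells and 6.02 and 8.63 in basophil cells, lower there as Prtn3 was. Mcpt8, a neighbour of Ctsg, and Ms4a2, a neighbour of Ms4a3, are basophil gate markers. Mcpt8 was at 129 and 100.1 CPM in granulocytic cells and 24483 and 25008 in basophil cells, and Ms4a2 at 43.3 and 43.8 against 3468 and 2309. By Pearson's r of log2(CPM + 10) over 16 points (8 gates in 2 libraries) among 6602 genes, the profile most like that of Mpo was Plac8 (0.974), then Fndc3b (0.967) and Gstm1 (0.964). Elane was most like Alas1 (0.977), Gpc1 (0.943) and Mgl2 (0.938), and Prtn3 like Gpc1 (0.925), Palm (0.919) and Gstm1 (0.919). For Ctsg the nearest were Bace1 (0.983), Fndc3b (0.974) and Cst7 (0.941), a granulocytic gate marker. Ms4a3 was most like Ap3s1 (0.950), Tmed3 (0.945) and Atp6ap2 (0.918), and Prss57 like Palm (0.932), Gstm1 (0.911) and Lta4h (0.894). Among the 6 genes themselves, r was 0.953 between Mpo and Ctsg and 0.927 between Elane and Prtn3. The points share libraries and gates, so these values are descriptions.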

How the data were processed

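RNA of single bone marrow cells was measured in 2 libraries, 1 per group. The deposited values are raw UMI counts per cell and gene. Per the file headers, the pipeline was BD WTA Rhapsody Analysis Pipeline 1.7.1, and the reference GRCm38 carried GENCODE vM19 annotation. The submitters' processing notes name Bowtie2. The sources used here do not say how cells were called. The tables held 6406 hypoxia and 3956 control cells with 137504361 and 121415081 UMIs. Cells with at least 500 UMIs, 200 genes and under 20% mitochondrial UMIs were kept, and doublets called with Scrublet (scanpy 1.11.5) were removed, 112 (1.75%) and 33 (0.834%). Gates used marker sums per 10000 UMIs, with cuts of 5 (stem, granulocytic), 20 (monocytic) and 50 (basophil, neutrophil), and a cell past several cuts went to the gate with the largest multiple of its cut. Clusters (Leiden, leidenalg 0.10.2, resolution 1.0, 23 clusters) left out the 6 genes. UMIs were summed per gate and library and scaled to CPM, with exact Poisson, conditional binomial and Clopper-Pearson 95% intervals. Log2 ratios had 10 CPM added, which understates the ratio of low genes. Genes counted as past 1.5-fold needed 50 UMIs over both libraries. TMM factors (edgeR 4.0.16) were an alternative. The computation was tested on simulated data. With 1 library per group no p-value is given. The 6 genes, the gene lists and the markers were chosen with earlier results of these data known. Named genes are the 6, the lists' genes with the largest and smallest ratios, the nearest neighbours, and the 3 most like profiles of each. Calr, Alas1, Srgn, Ctsc, Cebpa and Myb, and Gfi1 in granulocytic cells, were named for their roles after their values were seen. Promoters are from RefSeq (GRCm38.p6). The list of other granule and lysosomal proteins is not reported here for granulocytic cells.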

Additional observations from a re-analysis of the deposited data

Results flagged for a closer look

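The ratio of Prss57 between hypoxia and control pointed in opposite directions in stem and in monocytic cells. It was 2.15 (interval 1.29 to 3.68) in stem cells and 0.557 (0.486 to 0.639) in monocytic cells, a difference of 1.31 between the log2 ratios with 10 CPM added. The difference itself was not tested, since each group has 1 library, and the stem value rests on 52 and 23 UMIs.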

How the results depend on the processing

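No paired analysis was possible because each group has 1 library, and for the same reason no replicate could be left out. Values are the median log2 ratio of the 6 genes. The stem value of 0.77 turned to -0.22 with cells assigned by cluster, where Elane stood at -0.51 and Ms4a3 at -0.14, and was 0.46 with clusters weighted alike, an alternative chosen after seeing the data. The granulocytic value of -0.13 was -0.16 with TMM factors, -0.17 as a mean of per-cell CPM, -0.068 with the cuts halved, -0.067 by cluster, -0.19 with thinned cells and -0.076 with clusters weighted alike. The monocytic value of -0.22 was -0.32 as a per-cell mean, -0.33 with the cuts doubled, -0.0082 by cluster, -0.28 thinned and 0.062 with clusters weighted alike. The basophil value of -0.015 was 0.29 with doublets kept and 0.18 with clusters weighted alike. The neutrophil value of 0.063 was 0.61 with doublets kept and 1.20 by cluster, and its 405 genes past 1.5-fold became 2742 with no minimum of UMIs. The assignment by cluster moved cells between gates, and causes of the other shifts were not tested. Over the 6 genes and 5 gates, 223 alternative values fell within the counting interval of the value reported, 99 fell outside it and 2 changed the sign of a ratio past 1.5-fold. Prss57 in stem cells, at 0.62, left the threshold when thinned (0.22), with the cuts doubled (0.51), by cluster (0.34) and with clusters weighted alike (0.45). Ms4a3 there left it when thinned (0.48) and Elane with clusters weighted alike (0.32), and Ctsg did so by cluster (0.089). Prss57 in monocytic cells left it when thinned (-0.38), by cluster (-0.20) and with clusters weighted alike (-0.20). Counting depth limits Prss57, Elane and Ms4a3 in stem cells and all 6 genes in neutrophil cells, and no value covers variation between mice.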

Other observations

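Eosinophil-gated cells, 71 in hypoxia and 19 in control, also carried the 6 genes. Mpo was at 2180.1 and 4016 CPM and Elane at 116 and 568. Prtn3 was at 277 and 985 CPM and Ctsg at 372 and 812. Ms4a3 was at 518 and 666 CPM and Prss57 at 225.5 and 220.5. Elane, Prtn3, Mpo and Ctsg were lower in hypoxia and Prss57 was at a ratio of 1.02 (interval 0.718 to 1.48), and the control values come from 19 cells.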
